A study of Drosophila melanogaster with 2 samples.

Results

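The cells described here were midgut cells chosen by the summed unique molecular identifiers (UMIs) of Diedel3, CG34040, CG7542, LysC and CG34026. A barcode was taken when these 5 genes held at least 3 UMIs and at least 3 times their pooled share of 0.382% of all UMIs, which set a limit of 1.14% of a cell's UMIs. Barcodes also needed at least 200 genes, at most 25% of UMIs on mitochondrially encoded genes, under 3 UMIs of esg, N and Dl together and under 3 UMIs of pros. The rule found 485 of the 8399 barcodes past the gene and mitochondrial limits. In the control library, esg[ts]/+, it took 230 of 4098 barcodes, 5.61% (exact Clopper-Pearson 95% interval 4.93% to 6.36%). In the esg[ts]/D30A library, called D30A here, it took 255 of 4301, 5.93% (5.24% to 6.68%). These shares were a product of the threshold, because each library's own pooled share in its place gave 3.95% and 7.11%.

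The study asked how the immune deficiency (IMD) pathway of intestinal progenitors affects the Drosophila melanogaster midgut. Control flies had the genotype w; esgGal4, tubGAL80[ts], UASGFP/+;+/+. The D30A flies carried the same drivers and UAS-ImdD30A/+, a dominant inhibitory form of Imd. Both groups therefore shared the w allele, GFP and the temperature-sensitive Gal80, and the esg driver is active in progenitors, not in mature enterocytes. Virgin females were raised at 18 °C and kept at 29 °C for 10 days before 27 guts per genotype were pooled into 1 library. Elastase was used at 1 mg per ml for both groups. With 1 library per genotype no test was possible, genotype and library cannot be told apart, and every interval given covers counting error only. Levels are counts per 1000000 UMIs (CPM) summed over a group of cells, and pairs of values give the control library first and the D30A library second. The imd level did not check the labels, since the 3′ end of the transgene is not given in the sources used here. In progenitors imd stood at 10.4 and 14.7 CPM, and in the chosen cells at 7.78 and 15.2 CPM.

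The files held 30383272 and 53275921 UMIs, and 3.39% and 31.9% of their barcodes were over the mitochondrial limit. The libraries shared 132 barcodes, of which 123 had at least 50 times fewer UMIs on one side. Such shallow copies made up 8 of the chosen cells in each library. Leaving them out changed the share of cells to 5.54% and 5.78%. Chosen cells ranged from 544 to 190778 UMIs in control, with a median of 5064, and from 673 to 265465 in D30A, with a median of 4617. The 85 control and 93 D30A cells of at least 10000 UMIs held 92.8% and 91.2% of all UMIs of the chosen cells, so levels from summed counts mostly describe these deep cells.

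Enterocytes are the absorptive cells of the fly midgut, and they secrete the enzymes that digest food. Among these are serine proteases of the trypsin and Jonah families, aspartyl proteases, maltases, amylases and lysozymes. Fly lysozymes of the LysB to LysE group cleave bacterial cell walls and are known as digestive enzymes rather than as inducible antibacterial factors. Peptidoglycan from gut bacteria is also what activates the IMD pathway, through peptidoglycan recognition proteins (PGRPs) and the adaptor Imd, which leads to the NF-kB factor Relish. Diedel, the founding member of the family of Diedel3, is a secreted protein that restrains IMD signalling.

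Among the genes that chose the cells, LysC was counted most. Its level was 8058 CPM in the chosen cells of control and 10162 CPM in those of D30A, against 395 and 282 CPM in all other cells. Diedel3 stood at 4590 CPM in control cells and 6544 CPM in D30A cells, against 183 and 178 CPM in other cells. CG7542, a serine protease gene, stood at 3511 and 4404 CPM in the chosen cells. CG34026 stood at 1569 and 1343 CPM, and CG34040 at 759 and 893 CPM. These values belong to the rule and are a description. The 5 genes differed between the libraries by log2 ratios (D30A over control) from −0.23 for CG34026 to 0.51 for Diedel3, so none reached a 2-fold difference.

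All 5 genes were counted in most chosen cells. They all had a UMI in 151 of 230 control cells (65.7%) and in 169 of 255 D30A cells (66.3%). A further 58 and 54 cells had 4 of them. These counts were made at full depth in cells chosen on the same genes, so they depend on the rule and on depth. CG34040 had a UMI in 77.0% and 75.3% of chosen cells, but in 59.2% and 52.9% when cells were thinned to equal depth. Whether the 5 genes occur together beyond the rule and depth was not tested. Every chosen cell held at least 2 of the 5 genes, and the lowest sum of the 5 was 7 UMIs in control cells and 8 in D30A cells, so the limit of 3 UMIs removed no cell. LysC was the leading rule gene in 56.5% of control cells and 56.9% of D30A cells, and Diedel3 in 21.3% and 27.8%. At the threshold, 35 control and 31 D30A cells lay between 1.14% and 1.26%, and 36 and 39 cells that were not taken lay between 1.03% and 1.14%. The cells just inside had a median of 1907 and 2095 UMIs, and those just outside 1453 and 1139.

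A UMI of a secreted-enzyme gene can come from free RNA, so shares of cells were read beside progenitors. The genes given here are rule genes, so their high shares in the chosen cells were in part set by the rule. The part of free RNA was not tested. With each cell thinned to 1500 UMIs, which left out 39 control and 49 D30A cells, Diedel3 was detected in 96.9% of chosen control cells and 96.6% of chosen D30A cells. In progenitors the same thinned shares were 10.0% and 9.09%. LysC was detected in 100% and 99.5% of chosen cells and in 18.2% and 18.0% of progenitors. Without thinning, LysC had a UMI in 99.6% and 99.2% of chosen cells (median 5064 and 4617 UMIs) and in 68.7% and 79.1% of progenitors (median 11631 and 19074 UMIs). CG34040, the least counted of the 5, was detected in 59.2% and 52.9% of thinned chosen cells and in 2.66% and 1.37% of thinned progenitors.

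LysC cannot be read as an independent gene. In the BDGP6.54 annotation it is a pseudogene on chromosome 3L, from 1210485 to 1210726 on the forward strand, and its end overlaps the reverse-strand gene LysD, from 1210717 to 1211196. LysB (1207371 to 1207981), LysE (1212827 to 1213406) and LysS (1227747 to 1228238) lie in the same cluster. LysB to LysE are near-identical copies, so the split of reads among them is uncertain. The annotation that the authors counted against was not named, and positions were matched by gene identifier only.

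The other lysozymes were high in these cells with LysC. Because LysC helped to choose the cells and shares sequence with LysB, LysD and LysE, their levels over other cells cannot be separated from the rule and are a description. LysD alone held 21.2% of the UMIs of chosen control cells and 15.9% of those of chosen D30A cells, at 211988 and 159291 CPM, which was 17.4-fold and 28.9-fold above other cells. LysB stood at 47173 CPM in control cells and 44490 CPM in D30A cells, 19.7-fold and 27.4-fold above other cells. LysE stood at 3580 and 6511 CPM, 17.6-fold and 28.1-fold above. Each of these copies was thus about as far above other cells as the others. LysS, a further member of the cluster with 221 and 175 UMIs, was 11.4-fold and 18.5-fold above other cells. LysP, whose product is known from the salivary gland, went the other way, at 6.22 and 6.41 CPM against 207 and 336 CPM in other cells. Of the 13 lysozyme genes in the list, 8 had any UMI in the chosen cells and 6 reached 50 UMIs.

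Per cell, LysB, LysC, LysD and LysE together took a median of 21.3% of UMIs in control, from 1.93% to 52.6%, and of 15.7% in D30A, from 1.90% to 50.7%. Other cells had medians of 3.64% and 2.35%. The share was higher in the deeper cells of both libraries. It was 14.8% of summed UMIs in control cells under 1500 UMIs and 30.7% in control cells of 10000 to 30000 UMIs, and 15.02% and 23.3% in the same D30A tiers. Cells of 30000 UMIs or more stood at 27.3% and 22.6%. Depth and lysozyme content therefore moved together across these cells, and the part of depth in the difference between the libraries was not tested beyond these tiers. From 1500 UMIs upward, each tier was lower in D30A, and under 1500 UMIs the libraries were level.

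**Figure D1:**
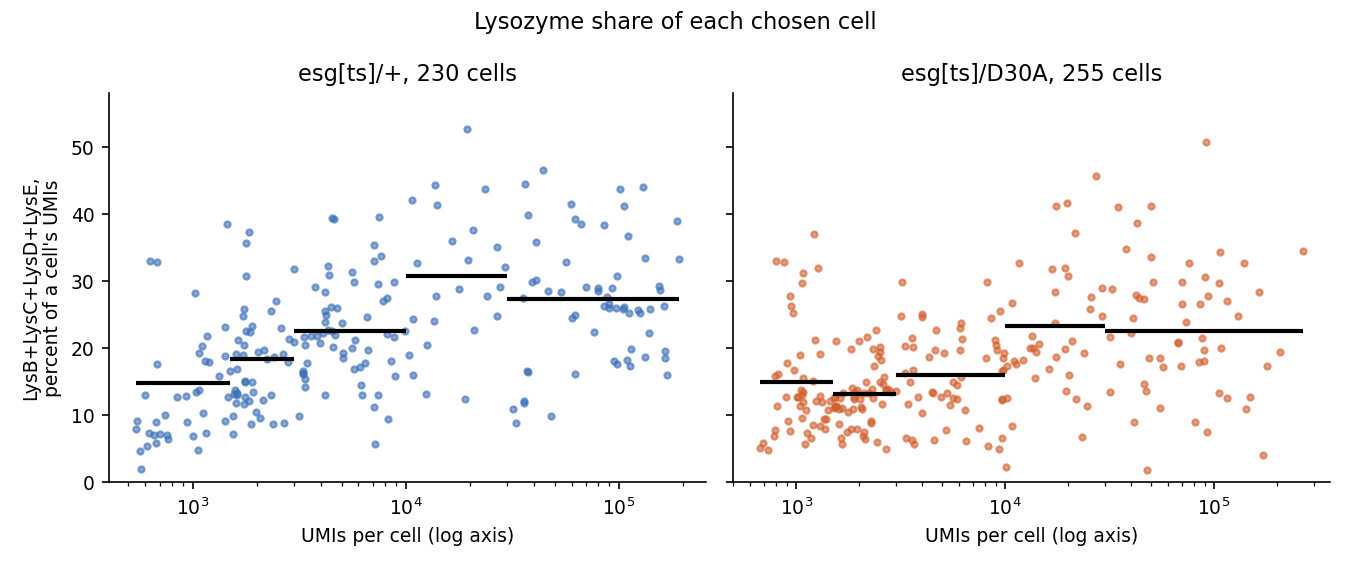
Share of each chosen cell's UMIs on LysB, LysC, LysD and LysE (vertical axis, percent) against the cell's UMIs (horizontal axis, log scale), with 1 point per cell and black lines for the summed share of each depth tier. Control tiers run from 14.8% to 30.7% and D30A tiers from 13.1% to 23.3%.

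The proportion of LysE differed more between the libraries than between groups of cells. LysE made up 1.66% of LysE plus LysD UMIs in chosen control cells, 1.64% in other control cells and 1.66% in control progenitors. In D30A the same proportion was 3.93%, 4.04% and 4.29%. LysC made up 3.66% of LysC plus LysD in chosen control cells and 6.0% in chosen D30A cells, against 3.14% and 4.87% in other cells. LysD, taken alone, was lower in D30A by a log2 ratio of −0.41 while LysE was higher by 0.86 and LysB stood at −0.08. Across the deep cells, LysD and LysE followed each other (Spearman rho 0.87 over 85 control cells and 0.93 over 93 D30A cells), while LysC and LysD did so less closely (0.58 and 0.62). These cells share a library and a total, and the rho values are descriptions.

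Proteases made up the other large share. The 40 trypsin and Jonah genes held 25.7% of the UMIs of chosen control cells and 20.4% of those of chosen D30A cells, against 7.04% and 5.20% in other cells. Of the 30 members with at least 50 UMIs, 13 were at least 2-fold above other cells in both libraries and 11 were at least 2-fold below. Over all 3900 genes with at least 50 UMIs in the chosen cells, 119 were at least 2-fold above (3.05%) and 2001 at least 2-fold below (51.3%), so a larger share of this list than of all genes was above and a smaller one below. The trypsin betaTry stood at 58294 CPM in control cells and 53599 CPM in D30A cells, 13.3-fold and 17.7-fold above other cells. Its neighbour epsilonTry on chromosome 2R was 14.6-fold and 19.6-fold above. The third gene of that cluster, alphaTry, was 4.30-fold and 6.14-fold above. These are secreted digestive endopeptidases. Jon25Bi stood at 12229 and 5189 CPM, against 658 and 173 CPM in other cells. Jon25Bii, 1143 bases away on chromosome 2L, was 12.6-fold and 17.7-fold above. Jon74E, 699 bases from CG7542 on chromosome 3L, stood at 3830 and 6240 CPM and was 10.3-fold and 20.1-fold above. The highest counted Jonah gene, Jon65Aiv, was 3.26-fold and 4.25-fold above, so the Jon25B pair and Jon74E stood out more from the rest of the gut than it did.

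Bace, which encodes an aspartyl protease, was 12.5-fold and 21.5-fold above other cells, at 42222 and 37840 CPM. The remaining leading genes were CG15199, CG43055, CG32695, CG5107 and CG4835. CG15199 had the highest ratio, 38.9-fold in control and 97.4-fold in D30A, but only 28 and 18 chosen cells held a UMI of it, and 59.0% of its D30A UMIs came from 1 cell. CG43055 was 15.6-fold and 21.7-fold above other cells and was found in 196 of 230 and 233 of 255 cells. All 15 leading genes were high in both libraries, but they were ranked on these same cells and the ratios are descriptions. Of the 20 rule and leading genes, 11 lay within 20 kb of another of them.

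**Figure D2:**
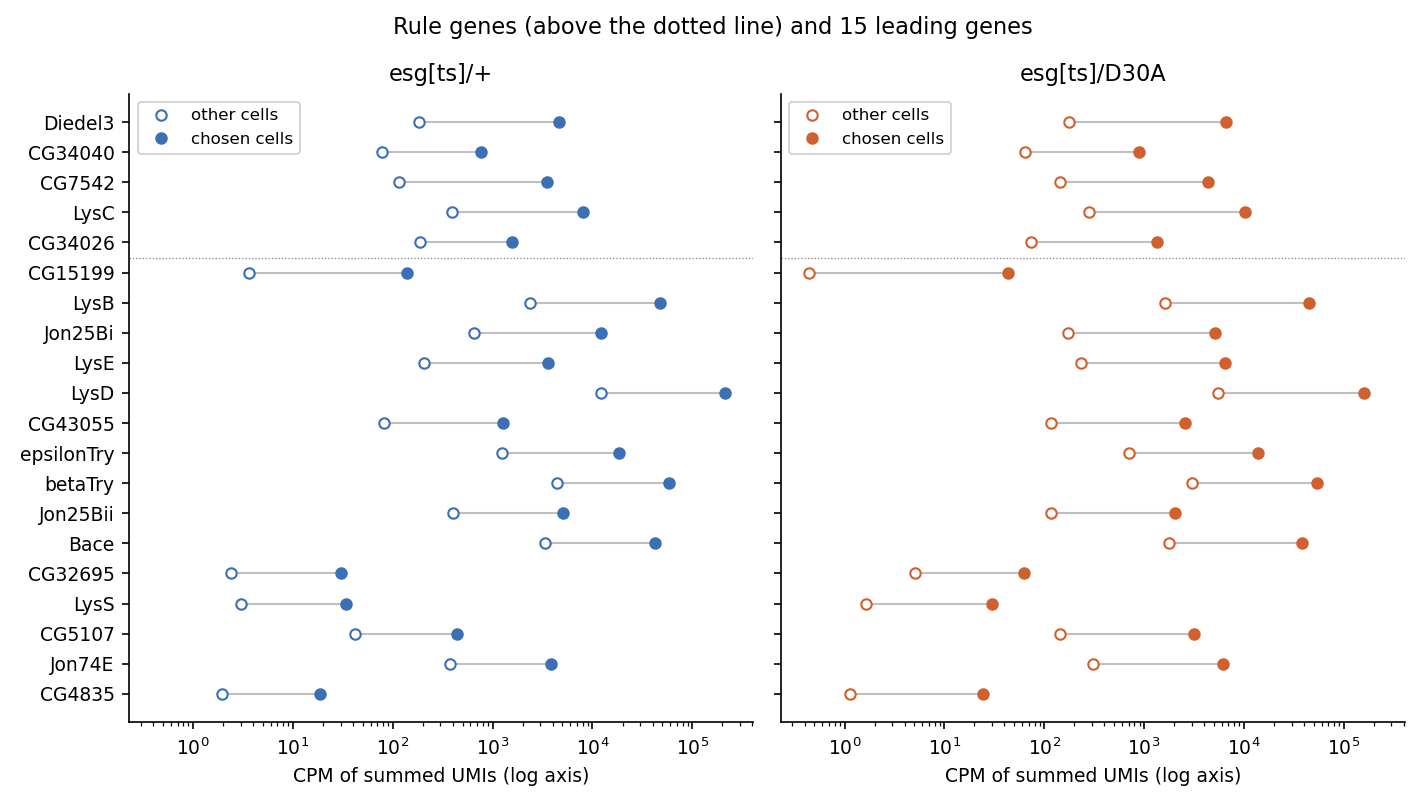
Level of the 5 rule genes and the 15 leading genes in chosen cells (filled points) and in all other cells (open points), in CPM on a log axis, for each library. Every filled point lies to the right of its open point, by 8.43-fold (CG34026 in control) to 97.4-fold (CG15199 in D30A).

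The enterocyte markers were high in sum but not gene by gene. The list of 17 enterocyte markers summed to 170820 CPM in chosen control cells and 144438 CPM in chosen D30A cells, against 40486 and 26294 CPM in other cells. Among its 16 members with at least 50 UMIs, 5 were at least 2-fold above other cells in both libraries and 8 at least 2-fold below, the latter near the 51.3% of all genes. Mal-A1, a maltase, stood at 7208 and 9029 CPM, 3.14-fold and 5.92-fold above other cells, and Amy-p, an amylase, at 1559 and 2089 CPM, 1.62-fold and 2.61-fold above. Of the 11 amylase and maltase genes with at least 50 UMIs, 6 were at least 2-fold above and none at least 2-fold below, and their median log2 ratio over other cells was 1.53 and 1.94, against −1.49 and −1.04 for all genes. No gene of 9 for lipid digestion and storage and of 5 lysosomal alpha-mannosidases was at least 2-fold above other cells, and 4 and 3 were at least 2-fold below. Ssk, Tsp2A and mesh build the smooth septate junction of the gut. Ssk stood at 243 and 270 CPM against 948 and 674 CPM in other cells, Tsp2A at 183 and 155 CPM against 477 and 318, and mesh at 82.9 and 104 CPM against 362 and 331. All 7 genes of that junction list were at least 2-fold below other cells, against 51.3% of all genes. The transcription factor nub, which acts in enterocytes, was at 27.7 and 66.2 CPM, against 87.4 and 131 CPM in other cells. With cells thinned to equal depth, nub had a UMI in 5.24% and 13.1% of chosen cells, against 9.31% and 13.5% of other cells. It was thus lower in control and about level in D30A by this measure. The same thinned shares were 1.43% and 1.89% in progenitors and 3.08% and 9.73% in enteroendocrine cells. Of the regional transcription factors, odd was the only gene with at least 50 UMIs above other cells in both libraries, at 15.2 CPM (12.4 to 18.6) and 28.2 CPM (24.1 to 32.9), 1.80-fold and 2.09-fold higher.

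The label of these cells as enterocytes thus rested on proteases, amylases and maltases. The 16 enteroendocrine markers summed to 58.8 and 123 CPM, against 4694 and 5960 CPM in other cells, and the 11 progenitor markers to 8.09 and 18.7 CPM, against 528 and 595. Both contrasts were in part set by the rule, which kept barcodes with 3 or more UMIs of esg, N and Dl or of pros among the other cells. That limit removed 0 and 1 barcodes as progenitors and 1 and 3 as enteroendocrine cells. Copper cell markers summed to 89.1 and 409 CPM, against 9389 and 7214 CPM in other cells, and CG14186 and Vha16-5 were at 0. Cardia markers went the other way, with a sum of 4004 and 1815 CPM against 3196 and 1250 CPM in other cells. They were carried almost entirely by Peritrophin-15a, and Sfp70A4 was at 0. Of the 14 visceral muscle markers 9 were at 0, Mhc among them, with Tm1 at 97.5 and 134 CPM. Hemocyte markers were at 0 for 9 of 10 genes, fat body markers for 5 of 6, and trachea markers for 4 of 5. Malpighian tubule markers summed to 0.78 and 3.29 CPM.

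The RNA of these cells was also concentrated on few genes. When each cell was thinned to 1500 UMIs, the chosen cells held a median of 340 and 397 genes. Other cells held 495 and 526 genes at that depth, and progenitors 469 and 497. Cells chosen in the same way on Jon66Ci and Jon44E held 419 and 445, and those on Ser8 and Crys 425 and 468. A low number was thus shared in part by these enterocytes, while cells chosen on zetaTry and CG31266 held 561 and 616. Cytosolic ribosomal protein genes took 19.4% and 20.2% of UMIs in the chosen cells, against 40.6% and 36.1% in other cells. A level in CPM is a share of the counted RNA, so fewer molecules of a gene and a larger share of enzyme RNA cannot be told apart.

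The chosen cells were not one uniform population. Jon25Bi and thetaTry, a trypsin second by fold after CG4830 in a cluster made without the 5 rule genes, did not occur together at high level. In the 85 control cells of at least 10000 UMIs, 58 had Jon25Bi at 1000 CPM or more, 16 had thetaTry at 1000 CPM or more, 11 had neither, and 0 had both, which allows a share of up to 3.53% of such cells (3 counts of the total). In the 93 D30A cells, 44 had Jon25Bi, 22 had thetaTry, 27 had neither and 0 had both, which by the same limit of 3 counts allows up to 3.23%. Jon25Bi ran from 0 to 84912 CPM across the control cells and from 0 to 46041 CPM across the D30A cells. The thetaTry cells were the deeper ones, with medians of 103870 and 85137 UMIs against 38388 and 28228 UMIs for the Jon25Bi cells. The limit of 1000 CPM and the choice of this pair were made after the values had been seen.

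**Figure D3:**
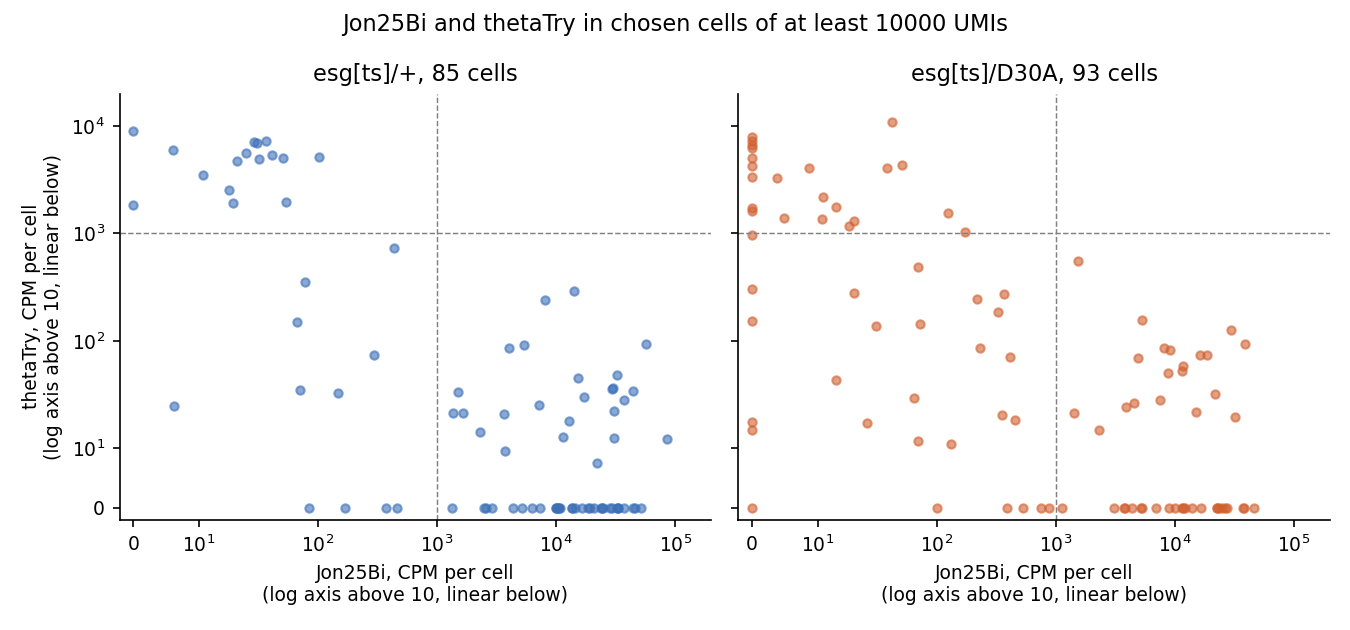
Level of thetaTry against Jon25Bi in each chosen cell of at least 10000 UMIs, in CPM of that cell, on axes that are logarithmic above 10 and linear below, with dashed lines at 1000 CPM. The upper right corner, where both genes would be at 1000 CPM or more, is empty in both libraries (0 of 85 and 0 of 93 cells).

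Genes of the thetaTry group were found in both libraries. The cluster that held them had 92 cells, 33 of control and 59 of D30A. In it, CG4830 was 96.3-fold and thetaTry 62.5-fold above the other chosen cells, Npc2f, a gene of the sterol-binding Npc2 family, 47.3-fold, Peritrophin-15a, a peritrophic matrix gene, 16.6-fold, and LManIII, a lysosomal alpha-mannosidase gene, 24.5-fold. Jon25Bi in that cluster stood at 76.0 and 175 CPM, and in the other 4 clusters between 7016 and 18767 CPM. The lysozymes did not divide in this way: LysD stood at 213273 and 174837 CPM in the thetaTry cluster. Bace and betaTry were above 1000 CPM in every deep cell of both libraries. The other clusters differed in their mix of libraries. A cluster of 92 cells led by CG7720 held 7 control and 85 D30A cells, and a cluster of 72 cells led by Jon25Bii held 67 control and 5 D30A cells, so neither can be told apart from its library. A cluster of 168 cells was shallow, with a median of 1883 UMIs, and a cluster of 61 cells led by CG17192 held 45 control and 16 D30A cells. These genes made the clusters, and they were named after their values were seen.

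Rank relations of the rule genes with each other and with Bace were looser across the deep cells. CG34040 and CG34026 followed each other with a Spearman rho of 0.46 over 85 control cells and 0.54 over 93 D30A cells, and CG7542 and Bace with 0.59 and 0.67. Diedel3 and CG34040 ran in opposite directions, with −0.36 and −0.30. Diedel3 and CG7542 showed no rank relation (0.00 and 0.02). The values describe cells of 1 library each, in which all genes share the total.

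Other enterocytes chosen in the same way on other genes were nearly distinct from these. Of the 72 control and 158 D30A cells chosen on Jon66Ci and Jon44E, 0 and 1 were also among the Diedel3 and LysC cells, and of the 42 and 139 chosen on Ser8 and Crys, none was. Of the 232 and 289 chosen on zetaTry and CG31266, 2 and 1 were. For comparison, the rule took 5.61% and 5.93% of all barcodes past the limits, and the control sets of 72 and 42 cells were small. LysD stood at 5640 and 2464 CPM in the Jon66Ci and Jon44E cells and at 4254 and 3247 CPM in the zetaTry and CG31266 cells, against 211988 and 159291 CPM here. Because LysD shares sequence with the rule gene LysC, this contrast cannot be separated from the rule and is a description. Jon99Cii, a Jonah protease named after its values were seen, had the reverse order, at 83125 and 60358 CPM in the Jon66Ci and Jon44E cells and 10822 and 6722 CPM in the Diedel3 and LysC cells. PGRP-SC2, which encodes a peptidoglycan amidase, stood at 708 and 970 CPM here and at 10816 and 12404 CPM in the Jon66Ci and Jon44E cells. With 1 library per genotype these differences have no test, and their direction was the same in both libraries.

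**Figure D4:**
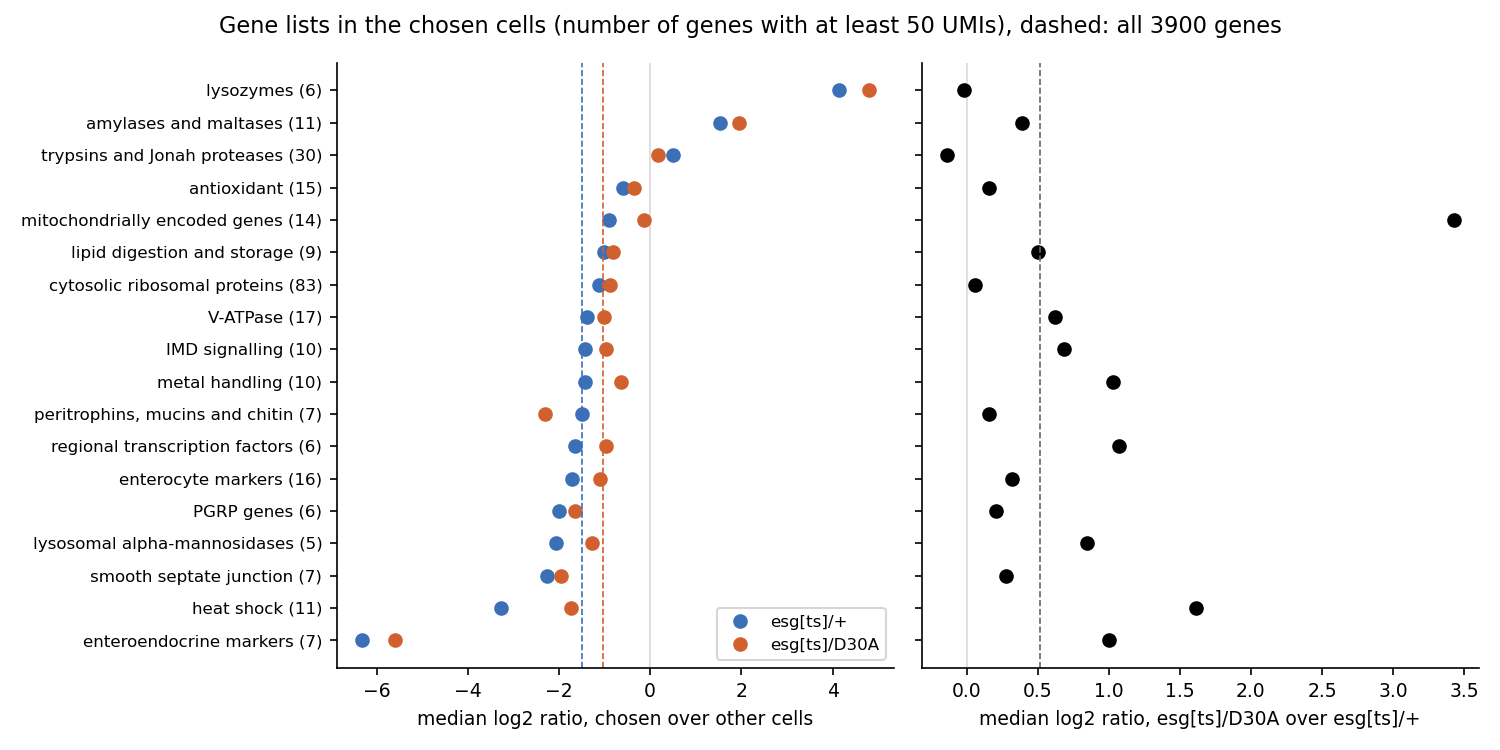
Median log2 ratio of each gene list with at least 5 genes of 50 UMIs or more in the chosen cells, without the rule genes' own list, over other cells of the same library (left, control in blue and D30A in orange) and of D30A over control (right), with the number of genes with at least 50 UMIs in brackets and dashed lines at the median of all 3900 genes (−1.49 and −1.04 on the left, 0.51 on the right). Of the lists drawn, lysozymes, which include the rule gene LysC, lie farthest to the right over other cells (4.13 and 4.79), and mitochondrially encoded genes have the highest median between the libraries (3.43).

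Between the libraries, most genes of the chosen cells were counted at a somewhat higher CPM in D30A. The median log2 ratio of D30A over control was 0.51 over 3900 genes, 842 genes were at least 2-fold higher (21.6%) and 18 at least 2-fold lower (0.462%). Relative to that median, 297 were at least 2-fold higher and 55 lower. With the lysozymes, trypsins and Jonah proteases left out of the total the median was 0.23, with 469 genes higher and 27 lower. Over cells under 10000 UMIs, where 1016 genes had 50 UMIs, the median was also 0.23 and 132 genes were higher. In the other cells of the gut the median was 0.14, and 9.72% of 8198 genes were at least 2-fold higher. Of the 842 genes, 722 (85.7%) stood at a lower level in the chosen cells than in other D30A cells. This was not particular to them, since the median log2 ratio of chosen over other D30A cells was −1.04 over all 3900 genes. Mitochondrial content moved with the libraries, with a median of 1.23% of UMIs in chosen control cells and 3.54% in chosen D30A cells. Its part in these differences was not tested.

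CG5107 was the clearest difference among the leading genes. It had 2861 UMIs in 175 of 230 control cells and 18092 UMIs in 237 of 255 D30A cells. Its level was 445 CPM in control cells and 3135 CPM in D30A cells, a log2 ratio of 2.82 (95% counting interval 2.76 to 2.87). After thinning, 44.5% of control cells and 94.2% of D30A cells held it, against 2.25% and 6.17% of progenitors. The ratio was 2.30 as a mean over cells and 2.74 without the top cell of each library. CG5107 was also higher in the other D30A cells, by 1.80. CG43055 stood at 1283 and 2546 CPM, a log2 ratio of 0.99, and CG32695 at 30.3 and 62.2 CPM, a ratio of 1.04. The trypsins and Bace stayed within 2-fold, at −0.12 for betaTry, −0.34 for alphaTry, −0.42 for epsilonTry and −0.16 for Bace.

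Genes with the largest ratios were of low level in these cells. CG7720 had 1 UMI in control and 425 UMIs in 81 cells of D30A, a log2 ratio of 8.89 (6.40 to 14.19). In D30A it was 5.85-fold above other cells. The w gene, which encodes a pigment precursor transporter and is named in both genotypes, had 6 and 289 UMIs, a log2 ratio of 5.75. In other cells w stood at 36.3 and 123 CPM, above the 0.93 and 50.1 CPM of the chosen cells.

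Muc68D, a mucin gene, and CG34324, CG3906, CG34220 and CG14645 shared another pattern. Their log2 ratios lay between 4.43 (CG14645) and 6.98 (Muc68D), and those of other cells between 5.06 and 6.03. In other D30A cells they were far above the chosen cells: CG14645 stood at 17396 CPM there and at 560 CPM in the chosen cells. Within the chosen D30A cells they were lower in deeper cells. CG14645 stood at 6864 CPM under 1500 UMIs and at 196 CPM at 30000 UMIs or more, and CG34324 at 2192 and 67.9 CPM. The part of free RNA in these UMIs was not tested.

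For CR44138, CG32368 and CG6277 a large share of the D30A UMIs came from 1 cell. CG6277, of a lipase family, had 109 and 2292 UMIs, a log2 ratio of 4.55, but 88.5% of its D30A UMIs came from 1 cell, and without the top cells the ratio was 1.58. One cell held 62.4% of the D30A UMIs of CR44138 and 49.5% of those of CG32368. Without the top cells their log2 ratios were 3.95 and 4.07, against 5.09 and 4.91 with them. Both are non-coding genes in BDGP6.54.

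Genes that were lower in D30A included CG18404 and CG6403 of the thetaTry cluster and the Jon25B pair. CG18404 stood at 2408 and 286 CPM, a log2 ratio of −3.07, with a UMI in 155 and 100 cells, and −1.56 as a mean over cells. One cell held 28.6% and 42.1% of its UMIs. It also stood lower in other cells, by −1.46. CG9682, its neighbour 352 bases away on chromosome 3R, had 631 and 96 UMIs and a log2 ratio of −2.56. Peritrophin-15b had 376 and 116 UMIs, −1.54, and Peritrophin-15a stood at 3945 and 1794 CPM, −1.14, but as means over cells these ratios were −0.47 and −0.54, short of 2-fold. CG43773 had 359 and 53 UMIs, −2.60. The peritrophins build the chitin-containing membrane around the gut contents. Jon25Bi had a log2 ratio of −1.24 (−1.26 to −1.22) and Jon25Bii of −1.29, but as means over cells these were −0.63 and −0.47, short of 2-fold. Both stood lower in the other D30A cells as well, by −1.93 and −1.78. CG15199 was at −1.70. CG6403 was at −1.68, with 88.0% of its D30A UMIs in 1 cell. For CG7567 and CG32483 the direction depended on the weighting: summed counts gave −2.42 and −1.19, and the mean over cells gave 0.38 and 0.03. Of the 18 genes at least 2-fold lower, 10 were so in other cells as well.

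**Figure D5:**
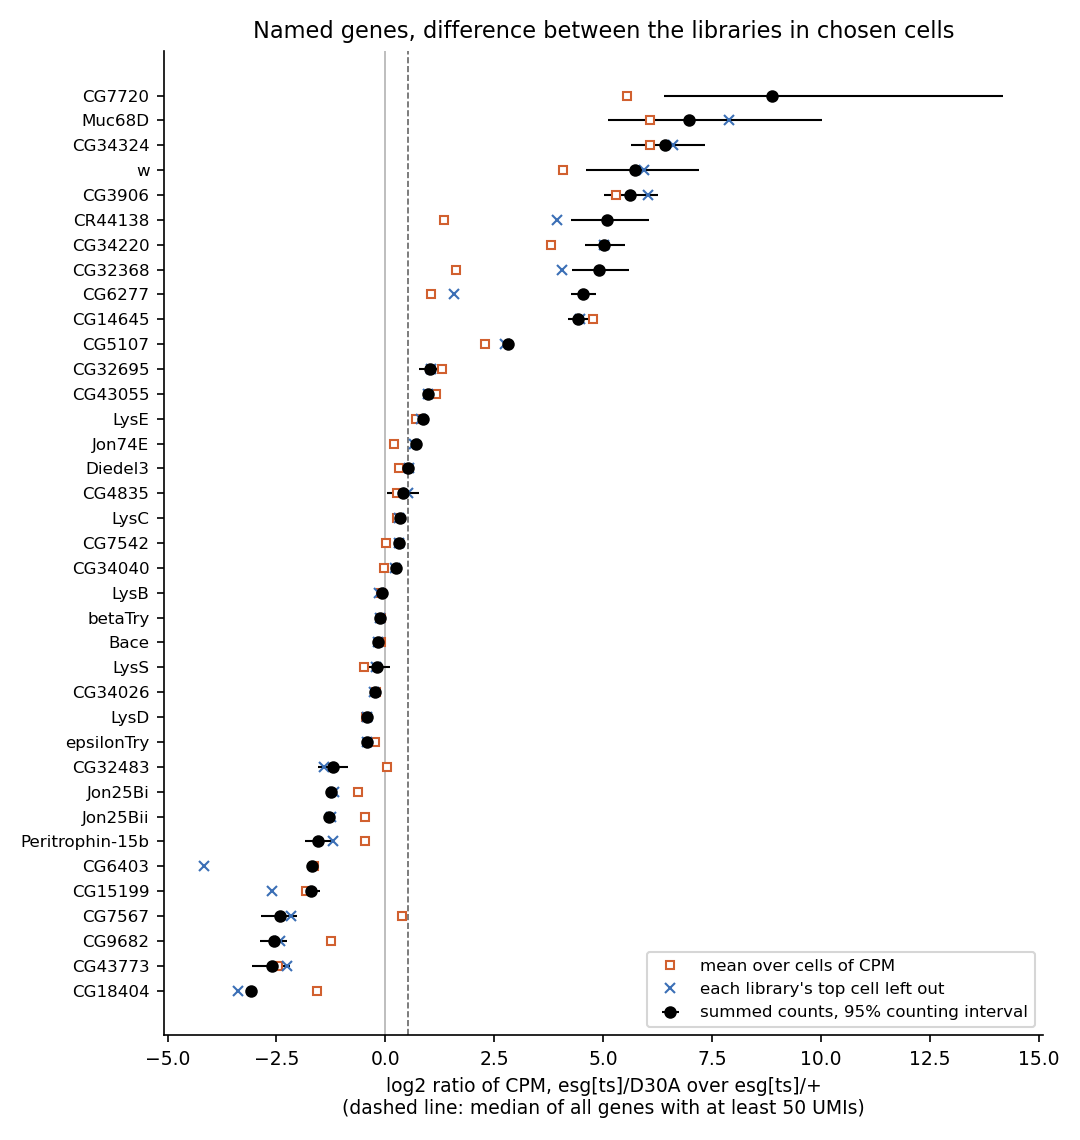
Log2 ratio of the D30A to the control level of each named gene in the chosen cells, from summed counts, with 95% counting intervals (black), as a mean over cells of each cell's CPM (open squares) and with each library's top cell left out (crosses, not defined for CG7720, whose 1 control UMI is then removed). CG6277 moves from 4.55 to 1.58 without its top cells, and CG7567 from −2.42 to 0.38 as a mean over cells.

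Mitochondrially encoded genes were higher in D30A as a list. All 14 with at least 50 UMIs were at least 2-fold higher, against 21.6% of all genes, with a median log2 ratio of 3.43, and their sum was 7937 and 31938 CPM. In other cells the sum was 12783 and 34863 CPM, so the difference was shared by the rest of the gut. Relative to the scaling by median of ratios, 13 of 14 were higher, and as means over cells 12 of 14.

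Heat shock genes were higher in 10 of 11 cases, with a median log2 ratio of 1.61, and 7 of 11 by the median of ratios. Hsc70-4, a constitutive chaperone, stood at 109 and 427 CPM and Hsp26, a small heat shock protein, at 88.7 and 244 CPM. Hsc70-3, the chaperone of the endoplasmic reticulum, was the exception at 232 and 281 CPM. In both libraries 10 of these genes were at least 2-fold below other cells. Among V-ATPase genes, which encode the proton pump, 7 of 17 were higher, with a median of 0.62, and Vha16-1 stood at 1057 and 2388 CPM while Vha13 stood at 1463 and 1539 CPM. Of 10 metal-handling genes 5 were higher and 1 lower. Fer2LCH, a ferritin subunit and the most counted of them, stood at 1909 and 2477 CPM. MtnA, a metallothionein, stood at 67.8 and 238 CPM, and MtnC at 247 and 121 CPM. All 4 copper cell markers with at least 50 UMIs were higher, with CG5767 at 61.9 and 334 CPM against 8777 and 6566 CPM in other cells. As means over cells, the log2 ratios of CG5767 and MtnA were 0.15 and −0.03, short of 2-fold. Against the 21.6% of all genes, all of these lists had a larger share higher. With scaling by median of ratios, 2 of 17 V-ATPase genes were above 2-fold, against 300 of 3900 genes in all. As means over cells, where 829 of 3900 genes were above 2-fold, 2 of 10 metal-handling genes and 2 of 4 copper cell markers did. The part of the mitochondrial content in these lists was not tested.

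Lists of digestion and metabolism were read against the 21.6% of all genes higher and the 0.462% lower. None of the 6 lysozymes and none of the 11 amylases and maltases with at least 50 UMIs reached a 2-fold difference, with median log2 ratios of −0.02 and 0.38. Of the 30 trypsins and Jonah proteases 5 were higher and 2 lower, with a median of −0.14. That is a smaller share higher and a larger share lower than over all genes, the 2 lower genes being Jon25Bi and Jon25Bii. Of 5 lysosomal alpha-mannosidase genes 2 were higher, a larger share than over all genes (median 0.85), LManVI among them at 132 and 375 CPM. With scaling by median of ratios 0 of the 5 were above 2-fold. As means over cells 1 was, with a median of 0.15 against 0.30 for all genes. Of 3 sterol-handling genes 1 was higher, Npc2e at 192 and 515 CPM, while Npc2f stood at 1243 and 826 CPM. Lipid genes had 2 of 9 higher, with a median of 0.50, and Dbi, an acyl-CoA binding protein, at 1838 and 2026 CPM. Antioxidant genes had 2 of 15 higher, with a median of 0.16, and Sod1, the cytosolic superoxide dismutase, at 808 and 726 CPM. The lipid list stood near the share of all genes and the antioxidant list below it. Regional transcription factors had 3 of 6 higher, a larger share, with a median of 1.07. None of the 83 ribosomal protein genes with at least 50 UMIs reached a 2-fold difference, with a median of 0.06.

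Genes of the IMD pathway were close to the median of all genes. Of 13 members in the files 10 had at least 50 UMIs, 2 were at least 2-fold higher, near the 21.6% of all genes, and none lower, and their median log2 ratio was 0.68 against 0.51 for all genes. The negative regulator pirk stood at 49.8 and 110 CPM, a log2 ratio of 1.14. The ubiquitin-conjugating enzyme eff was at 59.9 and 135 CPM, 1.18, and ben, another such enzyme, at 69.8 and 102 CPM, 0.55. Rel, the NF-kB factor, was at 61.1 and 69.3 CPM, 0.18. Both calls were lost with the scaling by median of ratios. No PGRP gene of the 6 that reached 50 UMIs differed by 2-fold between the libraries: PGRP-SC2 was at 0.46 and PGRP-LB, a secreted amidase, at 0.07, with 106 and 111 CPM. PGRP-SC2 was detected in 53.9% and 67.0% of thinned chosen cells and in 15.7% and 17.5% of thinned progenitors.

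Antimicrobial peptide genes were barely counted. The 20 genes of that list had 23 UMIs in the chosen cells of control and 39 in those of D30A, 3.58 and 6.76 CPM, none reached 50 UMIs, and 11 were at 0, including AttA, AttB and the 4 Cec genes. In other cells the list summed to 26.8 and 56.3 CPM. Of the Diedel family, Diedel and Diedel2 were at 0 in the chosen cells, and Diedel3 alone was counted.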

How the data were processed

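Single-cell RNA was measured in 1 library per genotype by 10x Chromium 3′ sequencing. The authors made the deposited count matrices, UMIs per gene and barcode, with Cell Ranger 3.0, and the submitters' processing notes also name Seurat 3.1.1. The genome build is not given in the sources used here. The members and gene lists were chosen with earlier results of these data known.

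Barcodes with under 200 genes or over 25% mitochondrial UMIs were left out, as were chosen barcodes with 3 or more UMIs of esg, N and Dl or of pros. UMIs were summed per gene and library, scaled to CPM, and given exact Poisson or Clopper-Pearson 95% intervals, which cover counting error only. A difference was called at 2-fold with at least 50 UMIs. Ratios with counts of 0 used a floor of 3 counts. The "other cells" are all other barcodes past the limits, and progenitors and enteroendocrine cells are barcodes with 3 or more UMIs of esg, N and Dl or of pros. No test was run, because there was 1 library per genotype. The median-of-ratios scaling, a mean over cells, other count minimums, other rules, and removal of the barcodes with the highest Scrublet doublet scores (144 and 320 barcodes, of which 2 and 1 were chosen cells) were tried. Doublets were otherwise kept. Alternatives by depth, without shared barcodes, without the top cell or without enzymes in the total were added after seeing the data. Leiden clusters used 30 components, 15 neighbours and a resolution of 0.5, without the 5 rule genes.

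The text names the 5 rule genes, the 15 other genes with the highest ratio to other cells (lower library, at least 200 UMIs), the 10 highest and 10 lowest ratios between libraries, and the most counted members of each list. Genes outside this rule are said to have been chosen after their values were seen. Gene positions were taken by gene identifier from BDGP6.54 (Ensembl 115). The matrices held 0 columns of other series. Counts were summed with numpy 2.4.6 and pandas 2.3.3 under Python 3.11.15, and intervals came from scipy 1.17.1. Clusters and doublet scores came from scanpy 1.11.5 and plots from matplotlib 3.10.9. Only the log2 ratio of summed counts and its interval were tested on simulated counts. These were drawn as Poisson counts, so the spread between cells was not covered.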

Additional observations from a re-analysis of the deposited data

How the results depend on the processing

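The share of cells chosen depended on the rule. It was 10.6% in control and 9.65% in D30A at 2 times the pooled share, 2.10% and 2.74% at 5 times, 3.95% and 7.11% with each library's own share, 8.93% and 7.97% with limits of 500 genes and 10% mitochondrial UMIs, 3.72% and 4.57% with at most 3500 genes, and 8.27% and 8.70% with each cell thinned to 500 UMIs. Without LysC in the rule the control share was 7.003%, and without a mitochondrial limit the D30A share was 4.26%. Over 18 rules the share was higher in D30A in 14.

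The number of genes at least 2-fold higher in D30A (842) was 300 with median-of-ratios scaling, 297 relative to the median, 1405 from 20 UMIs, 302 from 200 UMIs, 132 in cells under 10000 UMIs and 469 without lysozymes and proteases in the total. The number lower (18) was 55 with either scaling, 192 as a mean over cells and 35 from 20 UMIs. The median log2 ratio (0.51) was 0.0012 with median-of-ratios scaling, 0.30 as a mean over cells, 0.40 from 200 UMIs, and 0.23 both in cells under 10000 UMIs and without the enzymes. Under all 15 alternatives more genes were higher than lower. The number of genes lower than in other cells (2001) was 3109 from 20 UMIs, 695 from 200 UMIs and 1102 as a mean over cells. Of 481 values of 37 named genes, 4 reversed: CG7567 to 0.38 as a mean over cells and 3.33 in cells under 10000 UMIs, and CG32483 to 0.030 and 0.13. For each of these changes the cause was not tested. Counts of 1 and 2 in the control library limit the ratios of CG7720 and Muc68D. No paired analysis was possible because each genotype has 1 library.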
